A study of Mus musculus with 4 samples.

Results

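The scRNA-Seq data were examined for the tubular amino acid transporters, 10 genes taken by symbol from a fixed list: Slc6a19, Slc6a18, Slc6a20b, Slc1a1, Slc3a1, Slc7a9, Slc7a13, Slc3a2, Slc7a7 and Slc7a8. They are 10 of the 32285 genes listed for each library. All 10 had UMIs in kept cells of every library. Each of the 4 libraries came from whole kidney of male C3H (C3H/HeJ) mice that were 18 weeks old, after 8 weeks on ND or HFD (60% of calories from fat), started at 10 weeks. WT-ND and WT-HFD are wild-type for SGLT2. SP-ND and SP-HFD carry the homozygous Sweet Pee (SP) missense mutation in Slc5a2, the gene for SGLT2, called MT in the labels. The mutation is germline, so it is present in every cell. With 1 library per condition, and no statement of how many mice were used for each, differences between mice or preparations cannot be told apart from diet or genotype. No test was made, and all intervals are 95% intervals of counting error only.

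The proximal tubule takes back nearly all filtered amino acids. Uptake from the filtrate runs through apical transporters, and exit to the blood runs through basolateral exchangers. Slc6a19, Slc6a18 and Slc6a20b belong to the sodium- and chloride-coupled SLC6 family. Slc6a19 (B0AT1) is the main apical carrier of neutral amino acids, and its loss causes Hartnup disorder. Slc1a1 (EAAT3) takes up glutamate and aspartate. Slc3a1 (rBAT) is a heavy chain that brings a light chain to the apical membrane. Its classical partner Slc7a9 carries cystine and dibasic amino acids, and mutations in either gene cause cystinuria, whereas Slc7a13 (AGT1) pairs with it in the late proximal tubule. Slc3a2, the CD98 heavy chain, pairs at the basolateral side with Slc7a7 (y+LAT1), the gene of lysinuric protein intolerance, and Slc7a8 (LAT2).

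In mm10 (GENCODE vM21), Slc6a19 (ENSMUSG00000021565) lies at chr13:73679745-73704865 and Slc6a18 (ENSMUSG00000021612) beside it at chr13:73661752-73678023, both on the minus strand. Slc7a7 (ENSMUSG00000000958, chr14:54369442-54417780) and Slc7a8 (ENSMUSG00000022180, chr14:54722209-54781946) share another chromosome and the minus strand. Slc3a2 (ENSMUSG00000010095) is at chr19:8706882-8723369, minus strand, and Slc1a1 (ENSMUSG00000024935) at chr19:28835049-28913960, plus strand. The other 4 genes are on chromosomes of their own. Slc3a1 (ENSMUSG00000024131) is at chr17:85028376-85064236 and Slc7a9 (ENSMUSG00000030492) at chr7:35448796-35466036, both on the plus strand. Slc7a13 (ENSMUSG00000041052) is at chr4:19818725-19842218, plus strand, and Slc6a20b (ENSMUSG00000025243) at chr9:123590800-123632565, minus strand. Slc6a20b has a close paralog, Slc6a20a, so reads of the pair may have been split or lost between them, and its level is uncertain to that extent.

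Promoter sequences were available for 8 of the 10 members (RefSeq, GRCm38.p6), and 3 are shown. Slc7a7 had the largest diet difference of the members in late proximal tubule, and Slc3a1 and Slc6a20b had the most alike patterns across cell classes. Each sequence is the 250 bases before the annotated start, 5′ to 3′ on the gene's strand. They are chr14:54417945-54418194 (minus) for Slc7a7, chr17:85028097-85028346 (plus) for Slc3a1 and chr9:123632539-123632788 (minus) for Slc6a20b. Capitals mark CAAAGTCCA, a motif of HNF4 factors.
Slc7a7: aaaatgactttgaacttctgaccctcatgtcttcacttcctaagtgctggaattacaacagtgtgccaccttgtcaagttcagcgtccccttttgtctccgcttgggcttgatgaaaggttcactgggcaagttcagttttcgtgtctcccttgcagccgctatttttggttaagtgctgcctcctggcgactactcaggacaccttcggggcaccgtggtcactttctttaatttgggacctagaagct
Slc3a1: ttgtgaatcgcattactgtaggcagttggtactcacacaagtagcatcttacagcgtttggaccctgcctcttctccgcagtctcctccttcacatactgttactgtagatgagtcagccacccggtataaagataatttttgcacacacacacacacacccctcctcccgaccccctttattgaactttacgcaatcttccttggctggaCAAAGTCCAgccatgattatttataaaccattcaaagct
Slc6a20b: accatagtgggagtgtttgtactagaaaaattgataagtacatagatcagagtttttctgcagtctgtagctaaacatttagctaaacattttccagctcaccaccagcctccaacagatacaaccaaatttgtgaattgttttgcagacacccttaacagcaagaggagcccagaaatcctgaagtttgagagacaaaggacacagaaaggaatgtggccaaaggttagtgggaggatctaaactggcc
On either strand, CAAAGTCCA was present in 1 of the 8 windows, that of Slc3a1, with its first base 39 bases before the start, and in 0.384% of all 32851 windows of the same length. This motif was added to the search after the Slc3a1 sequence had been read. The nuclear receptor half-site AGGTCA was present in 1 of the 8, that of Slc7a9, and in 14.0% of all windows. The HNF1 half-site GTTAAT was in 0 of the 8 and in 6.43% of all. A match is only a match of letters.

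The libraries held 90728590 to 115117649 UMIs in 13229 to 16385 barcodes, more than the cells per group given as loaded in the study's methods. The kept cells numbered 9924 in WT-ND against 8947 in WT-HFD, and 6389 in SP-ND against 7020 in SP-HFD, with a median of 3467.5 to 5364 UMIs per cell, and libraries shared 9 to 39 barcodes of kept cells per pair. Clustering and reclustering of the proximal tubule-like cells left 2683 early and 1070 late proximal tubule cells, named from markers that exclude all 10 members. Early cells numbered 1274 in WT-ND against 512 in WT-HFD, and 547 in SP-ND against 350 in SP-HFD, and late cells 450, 224, 246 and 150 in that order. All 8 early markers were lower in the late subcluster than in the other proximal tubule-like cells, and 7 of 9 late markers were higher there. By library, 3 of the 9 late markers had no UMI in late cells of WT-ND, 0 in WT-HFD, and 1 each in SP-ND and SP-HFD. A further group of 80 late cells, led by Cyp7b1, was kept apart for its late marker score of 4.4. Of these cells, 54 came from SP-HFD and 1 from WT-ND. Another 1466 proximal tubule-like cells fitted neither class. They numbered 557 in WT-ND against 569 in WT-HFD, and 228 in SP-ND against 112 in SP-HFD. Of 333 cells in 1 of their subclusters, 326 came from WT-HFD. Markers of other cell types were low in both classes. Mitochondrial genes took 33.3% to 37.9% of early and 28.8% to 36.0% of late UMIs, with the highest share in SP-ND. The 6 endothelial markers summed to 4.31 to 10.8 CPM over the 8 pools. The 6 thick ascending limb markers summed to 221 to 323 CPM, with 1 of them at 0 in late cells of WT-HFD and of SP-ND. The 8 proximal tubule markers summed to 11920 to 14159 CPM, with none at 0. Late cells of SP-ND were less distinct. Their late markers summed to 1166.5 CPM, against 2442.5 in WT-ND, 2818 in WT-HFD and 3129 in SP-HFD. Their early markers summed to 2120 CPM, against 1682, 1431 and 1525. By a per-cell marker score, 166 of these 246 cells were also late, against 432 of 450, 217 of 224 and 147 of 150. This pool enters all ratios with SP-ND late cells, and its part in them was not tested. Of the early cells, 1078 of 1274 in WT-ND and 392 of 512 in WT-HFD were also early by that score. In SP-ND it was 475 of 547 and in SP-HFD 242 of 350. The early HFD pools, which enter the early diet ratios, thus had the smaller shares, and their part was not tested. Slc5a2 was at 515 CPM in WT-ND against 408 in WT-HFD, and 79.0 in SP-ND against 146 in SP-HFD in early cells, lower in both SP libraries. It is also 1 of the 8 early markers.

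Levels are given as CPM. The UMIs of a gene were summed over the cells of 1 class in 1 library and scaled to 1000000 UMIs of those cells. Each molecule was counted once, at its 3′ end, so gene length does not enter. Values for the 4 libraries are listed with WT before SP, and ND before HFD within each genotype. Endothelial and immune cells should lack the apical transporters. UMIs of a gene in these cells were taken as its level of free RNA. They were shallower cells, with a median of 1880 to 3386 UMIs by library. Early cells had a median of 8076 to 14378 and late cells of 14364.5 to 21644.5. The level may therefore be too high for proximal tubule cells, and subtracting it may remove too much. This was not tested.

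The 10 genes divided into 3 sets along the proximal tubule. Slc6a19, Slc7a7 and Slc7a8 were at least 1.5-fold higher in early cells in all 4 libraries. Slc7a13 and Slc6a18 were at least 1.5-fold higher in late cells in all 4. The other 5 genes did not pass that fold in the same direction in every library. Over the 6188 genes that reached 10 CPM in one of the classes in every library, 1.2% were higher in early cells and 1.47% in late cells by the same rule. Because the classes were clustered from the same cells, these differences describe the classes and were not tested, although none of the members took part in the clustering.

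Slc6a19 was at 245 CPM in early cells of WT-ND against 258 in WT-HFD, and at 239 in SP-ND against 212 in SP-HFD. In late cells it was at 50.7, 71.1, 46.4 and 63.3 CPM in the same order. No late value came near any early value. The log2 ratio of early over late ran from 1.74 (1.50 to 1.99) in SP-HFD to 2.36 (2.15 to 2.57) in SP-ND. Its chromosomal neighbour Slc6a18 (B0AT3), a carrier of neutral amino acids such as glycine, had the opposite arrangement. Slc6a18 was at 173, 150, 194 and 164 CPM in late cells, and at 69.8, 40.0, 73.3 and 28.9 CPM in early cells. The log2 ratio of early over late was −1.31 (−1.44 to −1.18) in WT-ND and −2.51 (−2.80 to −2.23) in SP-HFD, the ends of its range. Without integration, where subclusters split by library, the SP-HFD ratio was −0.09. There the early subclusters held 5 and 58 SP-HFD cells.

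Slc7a13 had the steepest late preference. It was at 955 CPM in late cells of WT-ND against 657 in WT-HFD, and at 641 in SP-ND against 694 in SP-HFD, so WT-ND was high and the other 3 libraries lay close together. In early cells it was at 185, 42.8, 112 and 48.6 CPM. Early over late was −2.36 (−2.43 to −2.29) on the log2 scale in WT-ND against −3.94 (−4.10 to −3.78) in WT-HFD, and −2.52 (−2.64 to −2.41) in SP-ND against −3.83 (−4.03 to −3.64) in SP-HFD. The interval of each HFD library lay beyond that of each ND library. The heavy chain that Slc7a13 shares with Slc7a9 did not follow it. Slc3a1 was at 182 to 244 CPM in early and 224 to 300 CPM in late cells, with log2 ratios of early over late of −0.38 to −0.30. Slc7a9 was at 61.0 to 94.2 CPM in early and 41.1 to 47.8 CPM in late cells. Its early-over-late ratio was 0.57 (0.32 to 0.82) in SP-ND, under the fold, and 0.83 to 0.98 in the other 3 libraries.

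At the basolateral side, Slc7a7 was at 168 CPM (161 to 176) in early cells of WT-ND against 89.8 (83.5 to 96.5) in WT-HFD, and at 148 (140 to 157) in SP-ND against 92.4 (84.1 to 101) in SP-HFD. In late cells it was at 44.1 CPM (39.3 to 49.4), 7.51 (5.26 to 10.4), 63.8 (56.6 to 71.6) and 8.76 (5.49 to 13.3). Early over late was 1.93 and 1.22 on the log2 scale in WT-ND and SP-ND, and 3.58 and 3.40 in WT-HFD and SP-HFD. Slc7a8 was at 43.5, 30.6, 65.3 and 35.9 CPM in early cells, and at 7.03, 3.96, 15.3 and 3.98 CPM in late cells. Its ratios of 2.09 to 3.17 rest on 10 to 69 UMIs in the late pools. The heavy chain Slc3a2 was at 80.5 to 95.4 CPM in early and 41.7 to 65.1 CPM in late cells, with ratios of 0.81, 0.95, 0.51 and 0.81 in the order of libraries above. The SP-ND value was under the fold. Endothelial and immune cells held Slc3a2 at 161 to 200 CPM, above both classes in every library, so no free RNA level could be set for it.

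Slc6a20b and Slc1a1 were nearly even. Slc6a20b was at 112 to 120 CPM in early and 107 to 127 CPM in late cells, with log2 ratios of −0.17 to 0.07. Slc1a1 was at 115 to 136 CPM in early and 125 to 149 CPM in late cells, with ratios of −0.24 to −0.09. Neither gene came near the fold in any library.

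**Figure D1:**
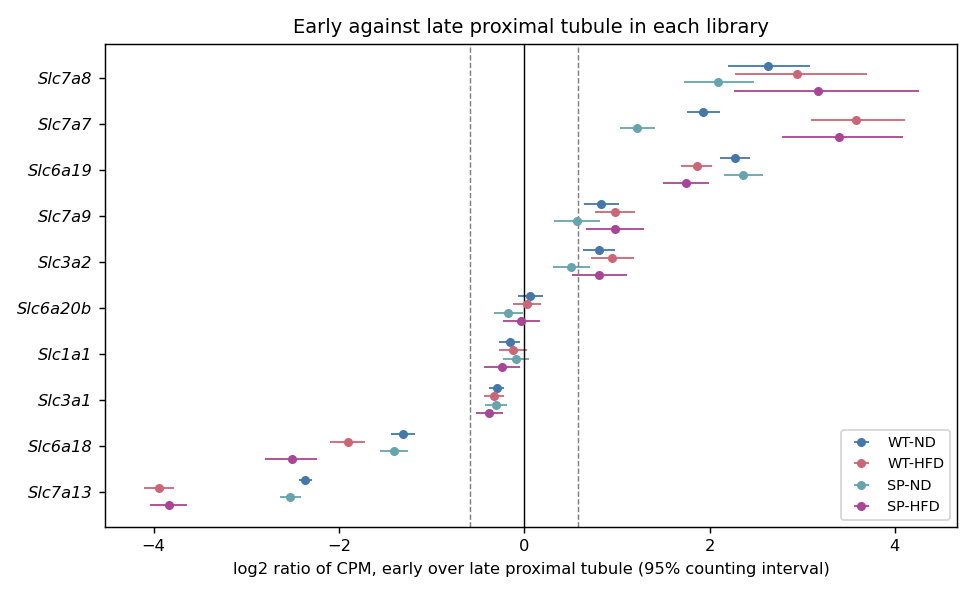
Log2 ratio of CPM in early over late proximal tubule for each gene (y axis) in each of the 4 libraries (points, with 95% counting intervals as bars). Dashed lines mark 1.5-fold. Slc7a13 and Slc6a18 lie left of the lines and Slc6a19, Slc7a7 and Slc7a8 right of them in all 4 libraries, and the HFD libraries are further out than the ND libraries for Slc7a13, Slc6a18, Slc7a7 and Slc7a8.

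The subclusters at the ends of the marker score showed the same ordering, with uneven steps between them. The subcluster with the highest score of early minus late markers held 247 cells, in which Slc6a19 reached 666 CPM, Slc7a7 368 CPM, Slc7a8 175 CPM and Slc3a2 193 CPM, each above the other early subclusters. Slc7a13 was at 17.8 CPM and Slc6a18 at 8.34 CPM in it. The other 3 early subclusters held Slc6a19 at 209 to 234 CPM, Slc7a7 at 111 to 130 CPM and Slc7a13 at 70.3 to 185 CPM. Among these 3, Slc6a19 and Slc7a7 were lower where the score was higher. An unassigned subcluster of 338 cells, with a score between early and late, held Slc7a13 at 14.5 CPM, the lowest level of all. It held Slc7a7 at 148 CPM. At the other end were the 80 Cyp7b1-rich late cells, with Slc7a13 at 2703 CPM, Slc6a18 at 937 CPM, Slc3a1 at 774 CPM and Slc1a1 at 311 CPM. Slc6a19 was at 5.26 CPM in them and Slc7a8 had no UMI, which in SP-HFD allows up to 15.3 CPM (3 counts in that pool).

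The Cyp7b1-rich cells were compared with the other late cells in SP-HFD (54 cells) and SP-ND (16 cells), the libraries that held most of them. Slc7a13 was higher by a log2 ratio of 1.99 (1.85 to 2.13) in SP-HFD and 2.23 (2.07 to 2.39) in SP-ND, Slc6a18 by 2.47 and 2.18, and Slc3a1 by 1.59 and 1.79. Slc1a1 was higher by 1.09 (0.67 to 1.48) and 1.08 (0.57 to 1.55). Slc7a9 was represented by 11 and 2 UMIs, and its intervals included 0. The cells were selected by their late markers.

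**Figure D2:**
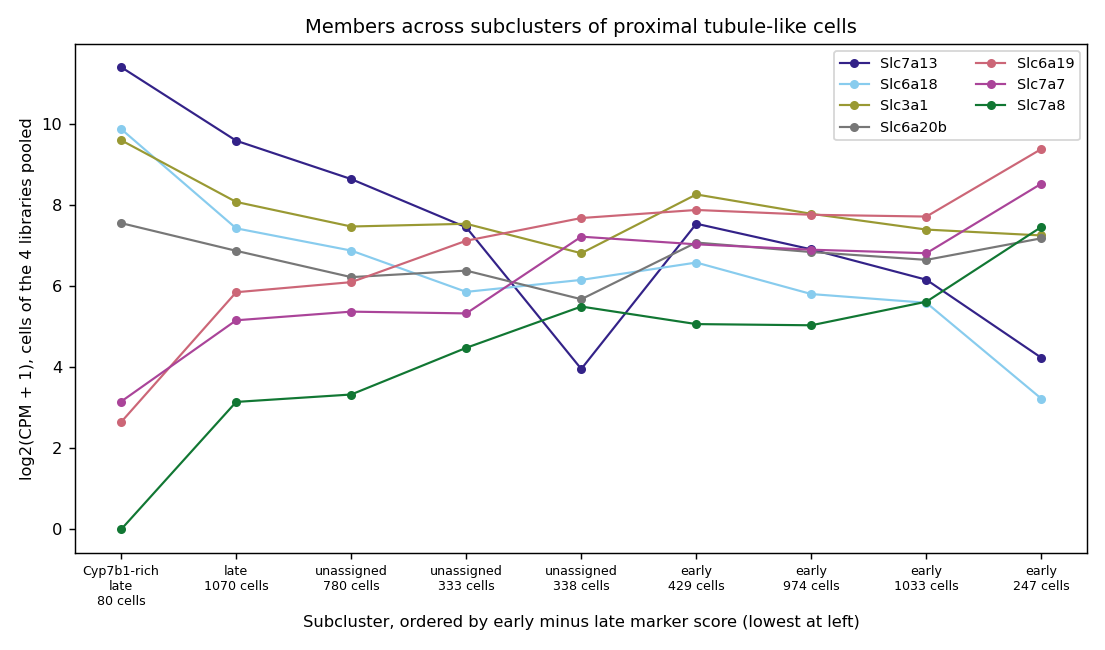
Log2(CPM + 1) of 7 genes (y axis) in the proximal tubule-like subclusters of at least 20 cells, ordered by early minus late marker score from left to right, with the 4 libraries pooled and lines joining the points of a gene. Slc7a13 is at 2703 CPM in the Cyp7b1-rich late cells and 17.8 CPM in the most early subcluster, and Slc6a19 at 5.26 and 666 CPM. The steps between are uneven, and Slc7a13 is lowest, at 14.5 CPM, in an unassigned subcluster of 338 cells.

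Outside the proximal tubule, only some of the genes were above free RNA. Slc7a8 was at 34.8 to 52.8 CPM in thick ascending limb, 44.3 to 74.1 CPM in distal convoluted and connecting tubule, 39.6 to 93.0 CPM in principal cells and 57.8 to 81.0 CPM in intercalated cells. Endothelial and immune cells held 8.33 to 12.2 CPM of it, and late proximal tubule 3.96 to 15.3 CPM. Mural cells and fibroblasts held 37.3 to 73.2 CPM. Slc3a2, its heavy chain, was found in every class, at 58.1 to 93.1 CPM in thick ascending limb and 103 to 162 CPM in principal cells. Slc6a18 was at 85.4 to 101 CPM in thin limb cells and Slc1a1 at 65.7 to 81.1 CPM, against 7.34 to 20.3 CPM and 6.84 to 17.6 CPM in endothelial and immune cells. Slc1a1 was also at 30.0, 20.2, 20.7 and 16.8 CPM in thick ascending limb. Apart from Slc7a7, and from the thin limb of WT-HFD, the other genes were at or near the free RNA level in thin limb and distal classes. For Slc7a7 the endothelial and immune level may include RNA of macrophages in that pool. Slc7a7 was at 9.31 to 18.3 CPM in thick ascending limb, 1.91 to 6.18 CPM in principal cells and 1.58 to 4.79 CPM in intercalated cells. In distal convoluted and connecting tubule it was at 3.78 to 11.4 CPM, a range that overlaps that of thick ascending limb. In WT-HFD, Slc7a13 was at 123 CPM in thin limb cells, which included a cluster of 65 WT-HFD cells with 279 CPM. In the remaining 153 thin limb cells of the library it was at 34.9 CPM.

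**Figure D3:**
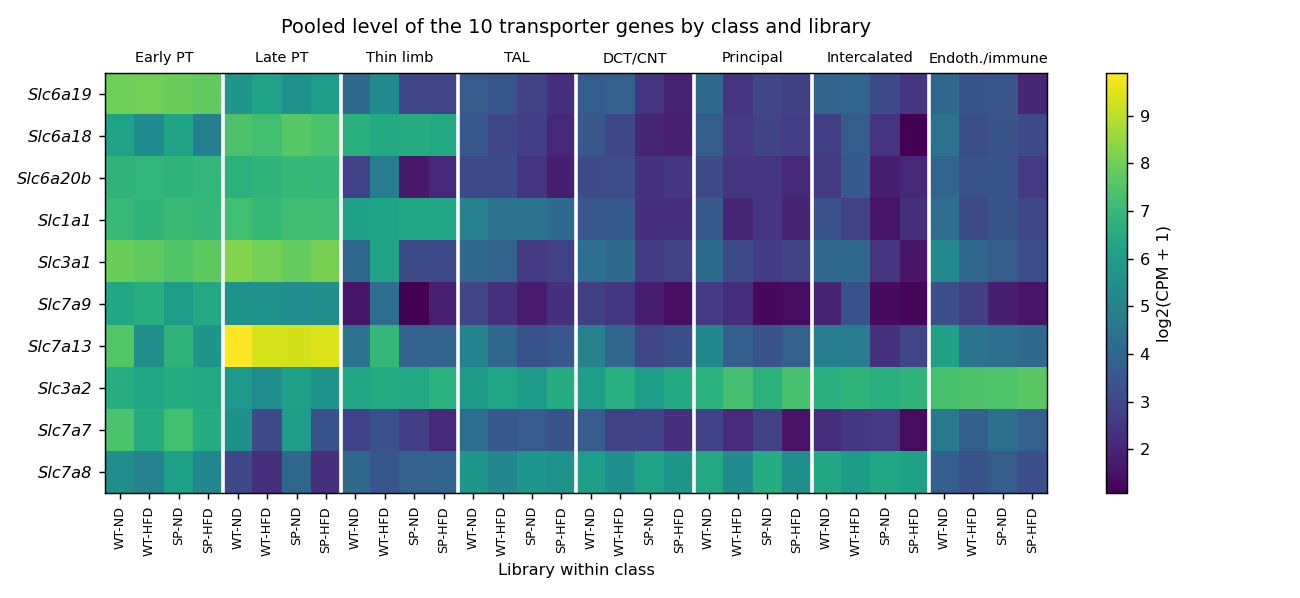
Colour gives log2(CPM + 1) for each gene (rows) in 8 cell classes, each with the 4 libraries side by side (columns). PT is proximal tubule, TAL thick ascending limb, DCT/CNT distal convoluted and connecting tubule. Slc7a8 and Slc3a2 stay bright through the distal classes, Slc6a18 and Slc1a1 extend into the thin limb, and Slc7a13 reaches 955 CPM in late PT.

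Detection in single cells gave the same picture at equal depth. After each cell was thinned to 1000 UMIs, 56.9% of late cells in WT-ND against 41.1% in WT-HFD, and 43.9% in SP-ND against 44.7% in SP-HFD had a Slc7a13 UMI. In early cells the shares were 12.8%, 4.69%, 7.13% and 2.87%, and in endothelial and immune cells 5.94%, 2.43%, 2.11% and 2.03%. The exact binomial 95% intervals of these shares overlapped in WT-HFD (3.03% to 6.89% against 1.69% to 3.37%) and in SP-HFD (1.38% to 5.21% against 1.43% to 2.79%). Such an overlap does not decide whether the shares differ, and no interval of the difference was computed. Slc6a19 was detected in 16.6% to 23.1% of early cells and 4.67% to 6.25% of late cells, against 0.384% to 2.08% of endothelial and immune cells. Without thinning, 88.7% to 98.9% of late cells had a Slc7a13 UMI. Thinning left out at most 4 cells of a proximal tubule pool and 87 to 293 endothelial and immune cells of a library.

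Diet was compared in each genotype, with the 1.5-fold rule in place of a test. The early and late classes leave out the unassigned cells, 569 in WT-HFD against 512 early and 224 late cells. Also left out was an unnamed cluster, described below, with 949 cells of WT-HFD and 52 of WT-ND. The diet ratios thus describe the assigned cells only. In WT early cells, 3 of the 10 genes were lower on HFD (Slc7a13, Slc7a7 and Slc6a18) and 0 higher, where 4.87% of 6737 genes were lower and 7.3% higher. In SP early cells, 4 of the 10 were lower (the same 3 and Slc7a8) and 0 higher, where 7.64% of all genes were lower and 7.93% higher. In late cells of WT, Slc7a7 was lower among the 9 members that reached 10 CPM, and 0 were higher (7.06% and 5.22% of all genes). In late cells of SP, 2 of the 10, Slc7a7 and Slc7a8, were lower and 0 higher (9.39% and 11.3%). The median log2 ratio of the members was −0.23 in WT early, −0.21 in WT late, −0.16 in SP early and −0.03 in SP late cells. Over all genes tested the medians were 0.03, −0.06, −0.00 and 0.03.

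Slc7a7 was lower on HFD in both classes of both genotypes. From the levels given above, the log2 ratio of HFD over ND was −0.90 (−1.03 to −0.78) in WT early and −0.68 (−0.84 to −0.52) in SP early cells. In late cells the WT ratio was −2.55 (−3.10 to −2.05) and the SP ratio −2.86 (−3.56 to −2.24), on 36 and 22 UMIs in the HFD pools. The SP ratio is against the SP-ND late pool, with its lower late and higher early markers. Both late HFD levels lay below the 12.6 and 12.8 CPM of endothelial and immune cells of their libraries, a pool that includes macrophages. The difference was uneven among early cells. In the 247-cell subcluster with the highest Slc7a7, HFD over ND was 0.04 in WT and −0.06 in SP. In the other 3 early subclusters it ranged from −1.79 to −0.99 in WT and from −1.22 to −0.25 in SP. That subcluster made up 6.28% of early cells in WT-ND and 13.3% in WT-HFD, and 9.69% and 13.1% in SP-ND and SP-HFD. Without integration of the libraries, the early ratio turned positive in both genotypes, at 0.33 in WT and 0.16 in SP, and the WT late ratio was −0.39. The SP early ratio fell short of the fold at a higher clustering resolution (−0.49), as a mean over cells (−0.38) and under a per-cell marker score (−0.32).

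Slc7a8 was lower on HFD by a log2 ratio of −0.86 (−1.12 to −0.61) in SP early cells, past the fold, but it was −0.27 without integration and −0.46 under the per-cell score. In WT early cells the ratio was −0.51 (−0.73 to −0.29), short of it. In SP late cells the ratio was −1.95 (−3.07 to −0.98), on 10 and 69 UMIs, against the same SP-ND late pool. In WT late cells it was −0.83, not called because both pools were under 10 CPM, and 0.56 without integration. The late levels of WT-ND, WT-HFD and SP-HFD lay below the 8.33 to 12.2 CPM of endothelial and immune cells. Slc3a2, the common heavy chain of Slc7a7 and Slc7a8, had ratios of −0.24 (−0.38 to −0.10) in WT early and −0.11 (−0.29 to 0.06) in SP early cells. In late cells the ratios were −0.39 (−0.64 to −0.13) and −0.41 (−0.73 to −0.10).

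Slc7a13 was lower on HFD in early cells, by a log2 ratio of −2.12 (−2.28 to −1.95) in WT and −1.20 (−1.41 to −0.99) in SP. In late cells, where it is most abundant, the WT ratio was −0.54 (−0.60 to −0.48) and the SP ratio 0.11 (0.03 to 0.20). Free RNA of this gene also differed between libraries, at 68.4 CPM in endothelial and immune cells of WT-ND and 20.7, 18.5 and 16.2 CPM in WT-HFD, SP-ND and SP-HFD. With those levels subtracted, the early ratios were −2.40 in WT and −1.52 in SP. In the 3 larger early subclusters the WT ratio ranged from −2.44 to −1.72, and the SP ratios were −2.75, −1.60 and 0.08. Without integration the SP early ratio was −0.51, short of the fold. The summed late markers did not fall with it in early cells, at 1372 CPM in WT-ND against 1554 in WT-HFD, and 810 in SP-ND against 1606 in SP-HFD, with 1 to 3 of the 9 markers at 0, and their part in the result was not tested. Slc6a18, the other late gene, had early ratios of −0.80 (−0.99 to −0.62) in WT and −1.34 (−1.62 to −1.08) in SP. Its late ratios were −0.21 (−0.34 to −0.07) and −0.24 (−0.41 to −0.07). Without integration the SP early ratio of Slc6a18 became 0.46.

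The remaining genes stayed within 1.5-fold on HFD in the main setting. Slc6a19 had ratios of 0.08 (−0.00 to 0.16) in WT and −0.17 (−0.28 to −0.06) in SP early cells, and of 0.49 (0.27 to 0.71) and 0.45 (0.14 to 0.75) in late cells. Its late ratio passed the fold in 5 of 12 alternatives in WT and in 2 of 11 in SP. With free RNA subtracted it was 0.82 in WT and 0.70 in SP late cells, both past the fold. Slc7a9 had 0.19 (0.05 to 0.33) and 0.46 (0.26 to 0.65) in early cells. Slc6a20b ran from −0.05 to 0.12 over the 4 comparisons, with 0 inside each interval. Slc1a1 ran from −0.25 to −0.01. Slc3a1 was lower on HFD in WT (−0.20 early, −0.17 late) and higher in SP (0.20 early, 0.27 late), and all 4 intervals excluded 0. With free RNA subtracted, the WT ratios were −0.07 early and −0.07 late, and the SP ratios 0.24 and 0.31. The SP early ratio ran from −0.47 to 0.26 over 12 alternatives and kept its sign in 11.

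**Figure D4:**
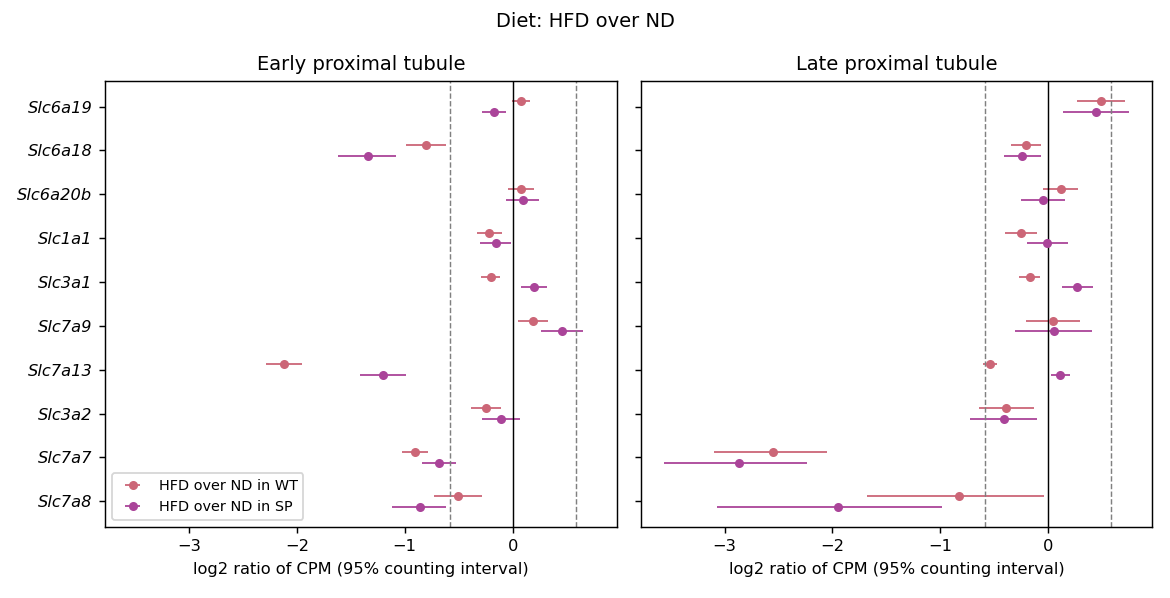
Log2 ratio of CPM on HFD over ND (x axis) in early and late proximal tubule (panels) for each gene, in WT and SP (colours), with 95% counting intervals as bars and dashed lines at 1.5-fold. Slc7a7 lies beyond the lower line in both panels and both genotypes, and Slc7a13 only in the early panel.

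Distal cells were compared by diet in principal cells, where Slc7a8 is well above its level in endothelial and immune cells and Slc3a2 is abundant, though not above its level in those cells. Slc7a8 was at 83.1 CPM in WT-ND and 39.6 in WT-HFD, and at 93.0 in SP-ND and 43.3 in SP-HFD, with log2 ratios of −1.07 (−1.41 to −0.73) and −1.10 (−1.40 to −0.81). Slc3a2 was at 103 and 155 CPM in WT, and at 107 and 162 CPM in SP, with ratios of 0.59 (0.37 to 0.81) and 0.60 (0.40 to 0.80). The light chain was thus low and the heavy chain high in both HFD libraries. Both Slc3a2 ratios lie at the edge of the fold. The alternatives covered early and late proximal tubule only, so the principal cell ratios were not recomputed. In WT, 6 members were lower and 1 higher by 1.5-fold among 7 that reached 10 CPM, where 9.94% and 8.25% of genes were. The other 5 lower ones are proximal tubule genes near their free RNA levels. In SP, 1 was lower and 1 higher among 3, where 5.02% and 6.4% of genes were. Slc3a2 ratios were also positive in thick ascending limb (0.38 in WT, 0.66 in SP), distal convoluted and connecting tubule (0.63, 0.46) and intercalated cells (0.19, 0.20). Slc7a8 ratios were negative in these classes, from −0.60 in WT thick ascending limb to −0.12 (−0.32 to 0.07) in SP thick ascending limb.

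Genotype was compared on each diet, with the same libraries as the diet comparisons, so that a library that stands apart enters 2 comparisons. On ND, Slc7a8 was higher in SP and Slc7a13 lower in early cells, 1 of 10 in each direction, where 3.13% of genes were higher and 1.89% lower. In late cells Slc7a8 was higher, 1 of 10, and 0 were lower (4.67% and 3.55%). On HFD, 0 of 10 members in early cells passed the fold in either direction (1.68% and 0.832% of genes were higher and lower), and 0 of the 8 that reached 10 CPM in late cells (6.01% and 1.15%).

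Slc7a8 had a log2 ratio of SP over WT on ND of 0.59 (0.41 to 0.77) in early and 1.12 (0.57 to 1.69) in late cells. The late value rests on the SP-ND late pool, with its lower late and higher early markers. It sets 69 UMIs in SP-ND against 48 in WT-ND. The WT-ND level of 7.03 CPM lay below the 8.33 to 12.2 CPM of endothelial and immune cells. No late ratio was therefore given with that level subtracted. The early value lies at the edge of the fold, and 4 alternatives brought it to 0.35 to 0.56. Slc7a13 had −0.73 (−0.85 to −0.62) in early and −0.57 (−0.64 to −0.51) in late cells, where WT-ND is the high library, and −0.33 in early cells after free RNA was subtracted. A per-cell marker score in place of subclusters brought the early value of Slc7a13 to 0.06. Slc3a1 was lower in SP on ND, by −0.43 (−0.52 to −0.33) in early and −0.42 (−0.53 to −0.31) in late cells, and Slc7a9 by −0.44 (−0.60 to −0.27) in early cells. On HFD the early ratios of SP over WT ran from −0.47 (−0.77 to −0.18) for Slc6a18 to 0.23 (−0.05 to 0.51) for Slc7a8. The late ratios ran from −0.17 for Slc6a19 to 0.23 for Slc3a2.

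**Figure D5:**
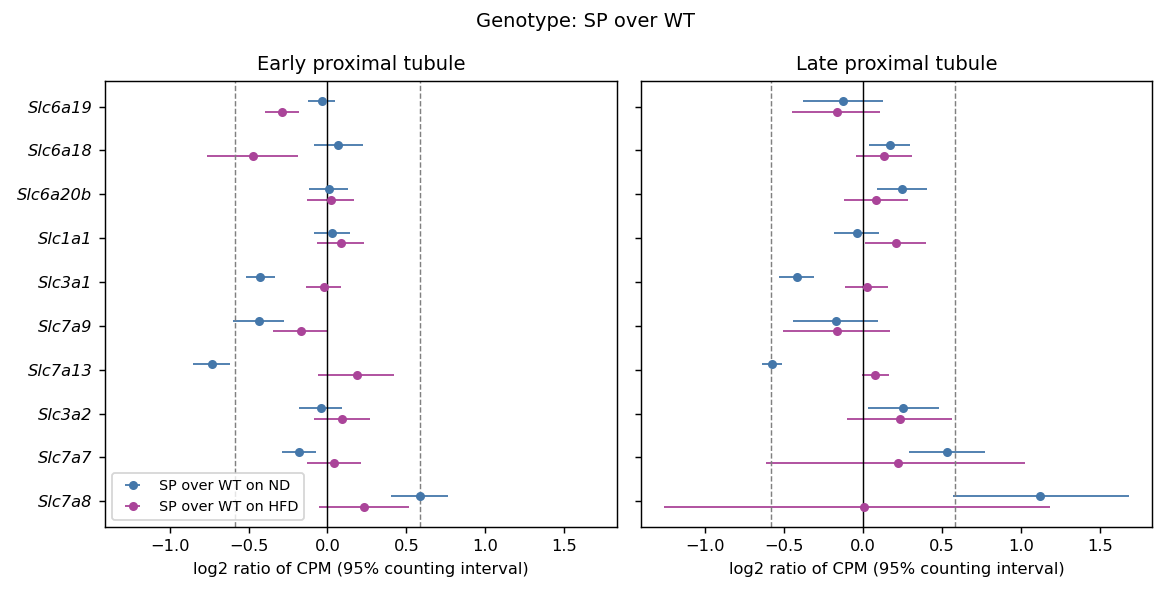
Log2 ratio of CPM in SP over WT (x axis) in early and late proximal tubule (panels) for each gene, on ND and HFD (colours), with 95% counting intervals as bars and dashed lines at 1.5-fold. On ND, Slc7a8 reaches the upper line in both panels and Slc7a13 passes the lower line in the early panel, and on HFD no gene passes either line.

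The members were set beside 31 other amino acid and peptide transporters and partners. Of these, 30 were kept after the filter on genes and 11 reached 20 CPM in early or late cells of a library. By the 1.5-fold rule, HFD was associated with 0 higher and 1 lower of 11 in WT early, 1 and 2 of 12 in WT late, 3 and 3 of 12 in SP early, and 5 and 3 of 13 in SP late cells, counted among those that reached 10 CPM. In the same order, 7.3% and 4.87%, 5.22% and 7.06%, 7.93% and 7.64%, and 11.3% and 9.39% of all genes were higher and lower. SP over WT gave 1 higher and 0 lower of 10 in early and 4 and 2 of 11 in late cells on ND, and 1 and 0 of 13 and 3 and 0 of 13 on HFD. The shares of all genes were 3.13% and 1.89%, 4.67% and 3.55%, 1.68% and 0.832%, and 6.01% and 1.15%. From early to late cells, 0 of 9 passed the fold in the same direction in all 4 libraries, where 1.2% of genes were higher in early and 1.47% in late cells.

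Cltrn (collectrin), the partner that carries Slc6a19 and Slc6a18 to the apical membrane, was lower on HFD by at least 1.5-fold in all 4 pairs of pools. It was at 3133 CPM in WT-ND against 1725 in WT-HFD, and 3170 in SP-ND against 1786 in SP-HFD in early cells, and at 2269, 1303, 2690 and 1319 CPM in late cells. The log2 ratios of HFD over ND were −0.86 in WT early, −0.80 in WT late, −0.83 in SP early and −1.03 in SP late cells, with intervals of at most 0.06 on either side. Both HFD libraries were low and did not overlap the ND libraries. Slc6a6, the taurine transporter, was also lower in both HFD libraries in each class, past the fold in 2 of the 4 pairs. It was at 202, 141, 210 and 140 CPM in early cells, and at 156, 88.2, 150 and 104 CPM in late cells. Slc38a3, a glutamine transporter of the basolateral side, was at 0.0852 CPM in WT-ND against 5.80 in WT-HFD, and 0 in SP-ND against 14.1 in SP-HFD in early cells, and at 0.586, 7.72, 2.89 and 24.3 CPM in late cells. The count of 0 allows up to 0.392 CPM, taken as 3 counts in that pool. Both HFD libraries were above both ND libraries, at low levels. Slc38a2, a neutral amino acid transporter, was at 15.1, 14.8, 32.01 and 17.4 CPM in early cells and 11.9, 18.1, 20.4 and 38.2 CPM in late cells. Slc16a10, an aromatic amino acid carrier, was at 32.7 to 38.9 CPM in early and 13.3 to 22.3 CPM in late cells, except for a higher value in SP-ND. Slc43a2, a basolateral uniporter of neutral amino acids, was at 54.7 to 70.4 CPM in early and 30.7 to 52.9 CPM in late cells. Slc36a1, a proton-coupled amino acid carrier, was at 48.1 to 55.7 CPM in early and 42.9 to 56.9 CPM in late cells. Slc6a13, a carrier of GABA and betaine, was at 24.2 to 26.2 CPM in early cells, except for a lower value in WT-HFD, and at 22.7 to 31.3 CPM in late cells. Slc6a15 was at 9.93 to 17.6 CPM in early and 7.78 to 24.3 CPM in late cells, and Slc15a2, the high-affinity peptide transporter, at 11.2 to 13.8 CPM and 10.8 to 23.1 CPM.

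The genes most like each member were sought by the Pearson correlation of log2(CPM + 1) over 45 pools of class and library, among 9606 other genes. The pools share libraries and cell classes, so the values are descriptions. Of the genes listed here, Slc27a2, Fbp1 and Pdzk1 are also markers from which the proximal tubule clusters were named. Their high values are partly set by that naming. Slc3a1 was most like Ugt3a2 (r = 0.991), Slc27a2 (0.991) and Slc22a12 (0.986), and Slc6a20b most like Ugt3a2 (0.987), Cyp2j5 (0.985) and Pdzk1 (0.984). Among the genes most like Slc7a9 were Fbp1 (0.979) and Pdzk1 (0.978), and Slc7a13 was most like Cyp2a4 (0.967), Slc5a8 (0.952) and Tmigd1 (0.941). Slc6a19 was most like Dpep1 (0.958), Ces1e (0.940) and Habp2 (0.938). Slc1a1 was most like Papss2 (0.958), Cbs (0.952) and Gm15217 (0.940), and Slc6a18 most like Cldn2 (0.930), Bdh2 (0.928) and Galns (0.927). Slc7a7 was most like Prodh2 (0.908), Cyp2d26 (0.903) and Acnat2 (0.895). The genes with distal expression had lower values, with Slc7a8 nearest to Ccdc141 (0.862), Arhgap6 (0.838) and Acss1 (0.811), and Slc3a2 nearest to Faim (0.891), Necap2 (0.877) and Dnase1l1 (0.870). Among the members themselves the closest pair was Slc3a1 and Slc6a20b (0.974), followed by Slc7a9 and Slc6a20b (0.968) and by Slc7a9 and its partner Slc3a1 (0.955).

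Clusters that were not named, and not counted among the proximal tubule-like cells, also held UMIs of the members. A cluster of 1015 cells, of which 949 came from WT-HFD, had the highest score for the markers of PT-HFD, a proximal tubule population described in these mice, among clusters with proximal tubule markers. That score was −0.11, a mean log2 ratio against all other kidney cells, distal cells included, so those markers were on average slightly lower in this cluster than in all others together. The clusters named proximal tubule, early proximal tubule and late proximal tubule had scores of −5.45, −2.54 and −3.29. Against those clusters the markers were thus higher in it. Its proximal tubule score was 0.19, and it was not given the name PT-HFD. In its WT-HFD cells, Slc7a13 was at 152 CPM, Slc3a1 at 116 CPM, Slc6a19 at 61.3 CPM and Slc7a7 at 16.1 CPM. Early cells of that library held 212 CPM of Slc3a1 and 258 CPM of Slc6a19. In the largest unnamed cluster (3385 cells, median 679 to 2085 UMIs per library), Slc6a19 was at 93.2 to 212 CPM and Slc7a13 at 168 to 300 CPM across the libraries. Its top genes began with the globin genes Hbb-bs and Hba-a1, and free RNA was not told apart from RNA of the cells in it.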

How the data were processed

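Whole-kidney suspensions were sequenced as 10x 3′ libraries. The authors ran Cell Ranger and deposited its unnormalized UMI counts as 1 matrix of genes by barcodes for each library. The file headers name Cell Ranger 6.1.2 and the submitters' processing notes name 2.1.1 and mm10. Coordinates are those of GENCODE vM21 on the same build. The depth was 93142028 UMIs in WT-ND against 115117649 in WT-HFD, and 111617794 in SP-ND against 90728590 in SP-HFD. Barcodes with 200 to 5000 genes and under 50% mitochondrial UMIs were kept, and genes in at least 3 cells (21150 genes). The top-scoring 0.8% per 1000 cells were removed as doublets by neighbours of simulated doublets. Cells were log-normalized, integrated by CCA anchors and clustered with Seurat on 50 principal components of 2000 features at a resolution of 0.5, without the members and the 31 context genes among the features. Clusters were named from marker lists. Proximal tubule-like cells were reclustered, and a subcluster was called early or late where its own markers were above 0 and at least 0.5 (log2) above the other list. Late subclusters with a score of 2 or more were kept apart. These thresholds were chosen once the clusters were known.

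Pooled counts of each class and library were scaled to CPM, and their counting intervals are exact Poisson. Ratios are log2, with exact conditional binomial intervals, and a count of 0 was set to 3 counts. Pools under 20 cells were left out of the ranges. No test was made, since each condition has 1 library, and a difference was called at 1.5-fold for genes of at least 10 CPM in one of the pools. PCR and sampling of mice are not covered by the intervals. Context genes were named by value where they reached 20 CPM, and 3 genes were named as most like each member, with a pseudocount of 1. Some of these values are not reported here. The members and lists were chosen with earlier results of these data known. The method was tested on simulated data for HFD against ND in WT early cells (6419 genes). All 200 changed genes were called in the right direction, 4 of 6219 unchanged genes were called, and 95.0% of intervals held the true ratio. The simulated counts were Poisson draws around pooled means, the error that the intervals assume, and each true change was 2-fold. Differences between cells, mice or libraries were not simulated, so these values give no rate of false calls for the real comparisons. Alternatives were the integration, the resolution, limits on mitochondria, depth and doublets, the scaling, free RNA, the assignment and the fold. The software was R 4.3.3 with Seurat 5.3.0, and Python 3.11.15 with scipy 1.17.1 and numpy 2.4.6.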

Additional observations from a re-analysis of the deposited data

Results flagged for a closer look

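The log2 ratio of HFD over ND had opposite signs in WT and SP, with both counting intervals away from 0, for 2 genes. For Slc7a13 in late proximal tubule it was −0.54 in WT and 0.11 in SP, a difference of −0.65. The SP value of Slc7a13 ran from −0.32 to 0.26 over 11 alternatives and kept its sign in 8. For Slc3a1 the log2 ratio was −0.20 and 0.20 in early cells, a difference of −0.40, and −0.17 and 0.27 in late cells, a difference of −0.44. With free RNA subtracted, the WT ratios of Slc3a1 were −0.07 in early and −0.07 in late cells, and the SP ratios 0.24 and 0.31. Each genotype has 1 library per diet, and these differences were not tested.

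Barcodes with 50% or more mitochondrial UMIs were left out of the comparisons. They held 18.8% of all UMIs of the 10 genes in WT-ND against 17.7% in WT-HFD, and 33.8% in SP-ND against 29.3% in SP-HFD. Of all UMIs of the libraries they held 30.0%, 29.9%, 45.7% and 40.1%. These totals include mitochondrial UMIs, by which the barcodes were selected, so the lower shares of the members are partly set by that selection. Slc3a2 was the lowest member there, with 9.28% to 16.8% of its UMIs.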

How the results depend on the processing

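The 5 members that passed the fold from early to late cells in all 4 libraries were 5 to 7 under the 12 alternatives that gave a value. For HFD against ND in SP, 6 member values of 20 (10 genes in 2 classes) passed, and 4 to 8 did so under 12 alternatives. For HFD against ND in WT, 4 passed, with 9 without integration and 2 at 2-fold. For SP against WT on ND, 3 passed, with 1 under the per-cell marker score and 1 at 2-fold. For SP against WT on HFD, 0 passed, with 3 without integration and 1 under the per-cell marker score. The alternatives that added the Cyp7b1-rich cells to the late class, or left out the early subcluster of highest mitochondrial share, were chosen after seeing the data. Without integration, SP-ND had under 20 late cells. Early against late in SP-ND, its count over all 4 libraries, and both comparisons with SP-ND late cells therefore could not be given. Of 1386 recomputed member ratios, 1153 stayed within the main interval, 229 left it and 4 called values changed sign. Without integration, where subclusters split by library, Slc7a7 on HFD in early cells became 0.33 in WT and 0.16 in SP, and Slc6a18 in SP early cells 0.46. A subcluster named late there held 806 cells of WT-HFD and 497 of SP-HFD, against 9 of WT-ND and 0 of SP-ND. Its early marker score was −0.20 and its late score 0.70. The pools of that setting thus differ in make-up from those of the main setting. With endothelial and immune CPM subtracted, no ratio was given where a pool held no more than the subtracted level, which was so for Slc3a2 throughout and for Slc7a7 and Slc7a8 in some late pools. With the per-cell score, Slc7a13 in early cells for SP over WT on ND became 0.064. Slc7a13 on HFD in WT early cells stayed between −3.33 and −1.82, and Slc7a7 on HFD in SP late cells between −3.00 and −1.26. Without a minimum level, the share of all genes past the fold rose from 12.2% to 19.3% in WT early and from 2.51% to 11.7% for SP over WT on HFD in early cells. No paired analysis was possible because each condition has 1 library, and for the same reason no replicate could be left out.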
